A study of Mus musculus with 9 samples.

Results

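The 10 genes described here encode the pyruvate dehydrogenase complex and the proteins that switch it on and off: the 4 pyruvate dehydrogenase kinases (Pdk1, Pdk2, Pdk3 and Pdk4), the 2 catalytic subunits of the pyruvate dehydrogenase phosphatases (Pdp1 and Pdp2), 3 catalytic subunits of the complex (Pdha1, Pdhb and Dlat) and Mpc1, a subunit of the carrier that brings pyruvate into the mitochondrion. They were taken by symbol, by a rule that uses no measured value, from the 55487 genes of the deposited table, and all 10 were among the 21049 genes that passed the filter on low counts and were tested. RNA-seq was done on retinal explants from wild-type mice (C57BL/6J, postnatal day 28) after 48 h in Neurobasal-A medium. There were 5 control libraries, from medium with 5 mM glucose, and 4 from the same medium to which 2-DG (2-deoxy-D-glucose) had been added at 20 mM; 2-DG is taken up like glucose but cannot be carried through glycolysis, which it inhibits. The protocol then has 1 h in Krebs' Ringer medium, while the paper says that retinas for RNA-seq were processed immediately. Whether these explants had that 1 h is not clear. The labels assign every library to batch 1. The sclera and the retinal pigment epithelium (RPE) had been removed at dissection. The libraries are labelled as biological replicates, but the labels do not tie them to animals, so p-values measure the spread between these libraries. The comparison asked whether mRNA of these genes differed with 2-DG, an inhibitor of glycolysis, the source of most pyruvate. How far glycolysis was inhibited cannot be read from these libraries.

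Pyruvate dehydrogenase turns pyruvate, the end product of glycolysis, into the acetyl-CoA that feeds the tricarboxylic acid (TCA) cycle, and so decides how much glucose carbon is burnt in mitochondria rather than released as lactate. The kinases phosphorylate the alpha subunit Pdha1 and turn the complex off, and the phosphatases remove the phosphate and turn it on again. The retina is known for making lactate even with oxygen at hand, and photoreceptors are its main glycolytic cells. In the GENCODE annotation of GRCm38 the kinase genes are Pdk1 at chr2:71873224-71903858 (plus strand), Pdk2 at chr11:95026258-95041354 (minus strand), Pdk3 at chrX:93764607-93832201 (minus strand) and Pdk4 at chr6:5483351-5496309 (minus strand). The phosphatase genes are Pdp1 at chr4:11958184-11966452 (minus strand) and Pdp2 at chr8:104591451-104599026 (plus strand). The subunit and carrier genes are Pdha1 at chrX:160122209-160138413 (minus strand), Pdhb at chr14:8165996-8173025 (minus strand), Dlat at chr9:50634633-50659780 (minus strand) and Mpc1 at chr17:8282904-8297661 (plus strand).

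The libraries held between 11317734 and 51802249 estimated counts, and 3 counts corresponded to 0.0556 to 0.255 CPM (counts per 1000000 counts of the library size, scaled by TMM). Markers of rods, the commonest retinal cells, were high in every library, with summed CPM of 10 markers between 5523 and 45024. Libraries differed strongly in other cell types, in both groups. The summed CPM of 10 vessel and pericyte markers was 349, 514, 564, 1136 and 2098 in control replicates 1 to 5 and 618, 499, 1126 and 2683 in 2-DG replicates 1 to 4. That of 9 bipolar cell markers was 2125, 727, 2131, 1113 and 243 in the controls and 3335, 3035, 1898 and 409 with 2-DG, so that control 5 and 2-DG 4 had the highest vessel and pericyte sums and the lowest bipolar sums. The vessel sum of 2-DG 4 was carried by Cdh5 (1346 CPM), Pecam1 (658 CPM), Cldn5 (327 CPM) and Tek (170 CPM), while Kdr was at its lowest there (50.2 CPM, against 64.8 to 174 CPM elsewhere) and the pericyte markers Pdgfrb, Rgs5 and Kcnj8, at 53.7, 68.4 and 5.23 CPM, lay within the range of the other libraries. The 10 Muller glia markers summed to 2077, 3898, 2087, 4521 and 7267 CPM in the controls and 1205, 1410, 3987 and 2550 CPM with 2-DG. The 10 RPE markers summed to 5.6 to 43.5 CPM in 8 libraries and to 296 in 2-DG 3, where Rpe65 was at 6.67 CPM against at most 0.315 elsewhere. None of the 11 marker lists differed between the groups by an exact two-sided permutation test of log2 sums (lowest p adjusted over the lists, 0.818). In bulk RNA, fewer cells of a type and less RNA per cell cannot be told apart.

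None of the 10 genes passed an adjusted p of 0.05 in edgeR's quasi-likelihood test with Benjamini-Hochberg adjustment over all genes tested, beside 0% of the 21049 genes. At an unadjusted p under 0.05 the count was again 0 of 10, beside 7.25% of all genes (1526), of which 509 were higher and 1017 lower with 2-DG. DESeq2 called 0 and limma-voom with quality weights 0 of the 10 at an adjusted p of 0.05, while they called 284 and 1222 of all genes. For no gene of the 10 did the 4 2-DG libraries lie wholly above or wholly below the 5 controls, against 2.93% of all genes (617). The log2 fold changes ran from -0.27 to 0.60 with a median of 0.20, and 6 of 10 were above 0, while over all genes tested the median was -0.01 and 10359 were above 0.

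**Figure D1:**
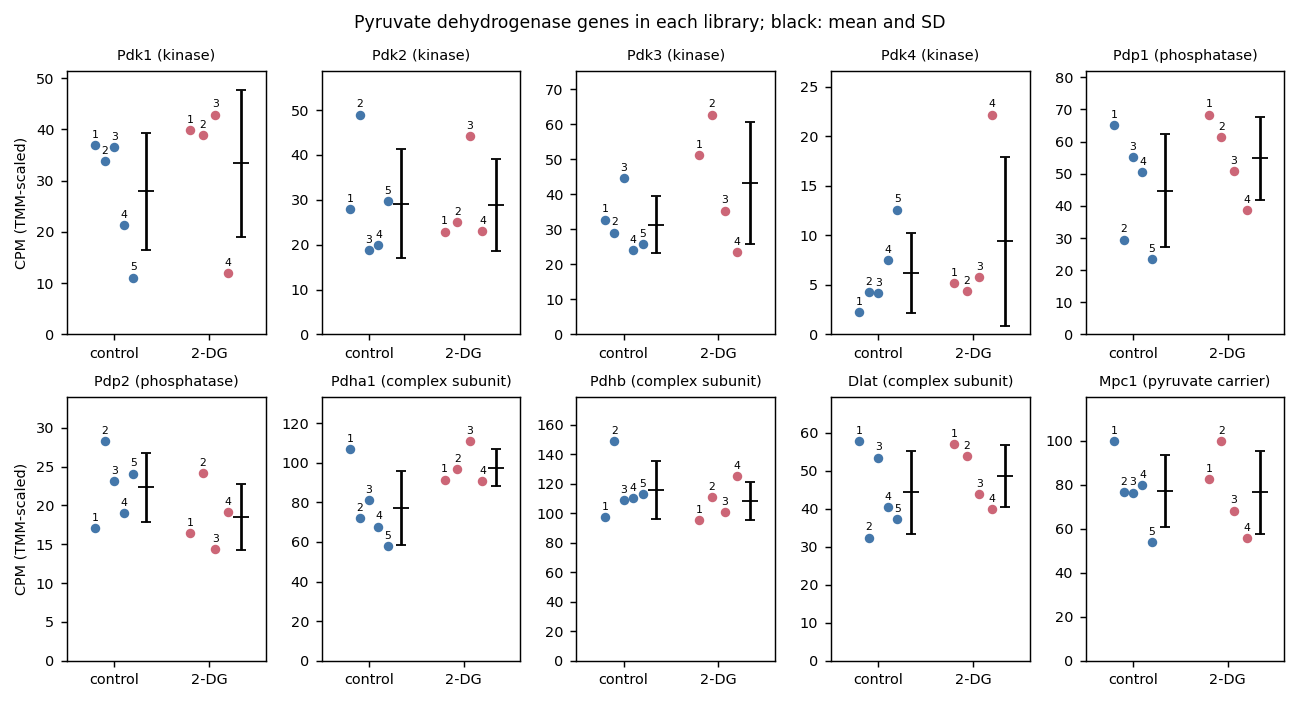
CPM on the TMM-scaled library size (vertical axes, starting at 0) of each of the 10 genes in 5 control (blue) and 4 2-DG (red) libraries, numbered by replicate, with the mean and SD of each group in black. The groups overlap in every panel, and control 5 and 2-DG 4 stand at the bottom of the Pdk1 panel and at the top of the Pdk4 panel.

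Among the kinases, Pdk1, the isoform best known as a target of the hypoxia-inducible factor, was at 37.0, 33.9, 36.5, 21.3 and 11.1 CPM in control replicates 1 to 5 and at 39.8, 38.9, 42.9 and 11.9 CPM in 2-DG replicates 1 to 4. Of the 9 libraries, 6 lay between 33.9 and 42.9 CPM, 3 from each group, and control 5 and 2-DG 4 had less than the rest. The means were 28 ± 11.4 CPM (SD, n = 5) in controls and 33.4 ± 14.5 CPM (SD, n = 4) with 2-DG. The log2 fold change was 0.26 (SE 0.43), with a 95% interval from -0.70 to 1.21 (edgeR adjusted p = 0.905).

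Pdk4, the kinase isoform that rises on fasting and when fat is burnt in heart and muscle, had the lowest mean CPM of the 10 genes in each group. It was at 2.27, 4.30, 4.20, 7.51 and 12.6 CPM in the controls and at 5.18, 4.39, 5.78 and 22.2 CPM with 2-DG. The library with the most Pdk4 in each group, control 5 and 2-DG 4, was the one with the least Pdk1. Over all 9 libraries the highest level of Pdk4 was 9.77 times the lowest, the widest range of the 10 genes. Its log2 fold change was 0.60 (SE 0.61), with a 95% interval from -0.75 to 1.95 (edgeR adjusted p = 0.842), and 1 of 4 2-DG libraries lay above the control mean. The direction rested on that library. Without 2-DG 4 the log2 fold change was -0.28 (edgeR adjusted p = 0.841), and without control 5 it was 1.03 (edgeR adjusted p = 0.864). With control 5 and 2-DG 4 both left out, a choice made after the data were seen, it was 0.13.

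Pdk3, an isoform described in brain and testis, was at 32.8, 29.1, 44.6, 24.1 and 25.9 CPM in controls and 51.3, 62.8, 35.4 and 23.5 CPM with 2-DG. The highest values belonged to 2-DG 1 and 2-DG 2, and the lowest of all to 2-DG 4. The fold change on the log2 scale was 0.47 (SE 0.30), with a 95% interval from -0.21 to 1.14 (edgeR adjusted p = 0.775). Leaving out one library moved it between 0.23 (without 2-DG 2) and 0.67 (without 2-DG 4, edgeR adjusted p = 0.354), and limma-voom, which gives libraries unequal weights, put it at 0.83 (adjusted p = 0.0646).

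Pdk2, the most widely expressed isoform, was at 28, 49.0, 18.8, 19.9 and 29.8 CPM in controls and 22.9, 25.1, 44.2 and 23.1 CPM with 2-DG. Control 2 and 2-DG 3 stood above the rest, and these are also the libraries with the most cone marker mRNA (588 and 823 CPM over 9 markers, against 79.9 to 135 elsewhere). The part of cone RNA in these values was not tested. The log2 fold change was -0.01 (SE 0.33), with a 95% interval from -0.75 to 0.72 (edgeR adjusted p = 0.996). Changes from 0.596-fold to 1.65-fold thus lie within the interval.

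Both phosphatases also overlapped between groups. Pdp1, the calcium-stimulated form, was at 65.1, 29.5, 55.2, 50.5 and 23.4 CPM in controls and 68.4, 61.3, 50.7 and 38.7 CPM with 2-DG. Its lowest values were those of controls 2 and 5 and of 2-DG 4. Its log2 fold change was 0.29 (SE 0.32), with a 95% interval from -0.41 to 1.00 (edgeR adjusted p = 0.854).

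Pdp2, the insulin-responsive form, was at 17.1, 28.3, 23.1, 19.0 and 24.1 CPM in controls and 16.4, 24.2, 14.4 and 19.1 CPM with 2-DG. It had the most negative fold change of the 10 genes, at -0.27 on the log2 scale (SE 0.24, 95% interval -0.80 to 0.27; edgeR adjusted p = 0.829). Only 1 library of 4, 2-DG 2, lay above the control mean of 22.3 CPM.

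Of the complex itself, Pdha1, the alpha subunit that the kinases phosphorylate, was at 107, 72.1, 81.2, 67.7 and 57.9 CPM in controls and 91.5, 96.8, 111 and 90.6 CPM with 2-DG. All 4 2-DG libraries lay above the control mean of 77.3 CPM and above controls 2 to 5, and control 1 lay among them. The fold change on the log2 scale was 0.34 (SE 0.21), with a 95% interval from -0.13 to 0.80 (edgeR adjusted p = 0.771), the smallest unadjusted p of the 10. Leaving out one library moved it between 0.24 (without control 5) and 0.48 (without control 1, edgeR adjusted p = 0.629).

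Pdhb, the beta subunit that forms a tetramer with Pdha1, was at 97.2, 149, 109, 110 and 113 CPM in controls and 95.3, 111, 101 and 125 CPM with 2-DG. It had the narrowest range of the 10, with the highest library 1.56 times the lowest. The log2 fold change was -0.10 (SE 0.19), with a 95% interval from -0.52 to 0.33 (edgeR adjusted p = 0.919). The transferase subunit Dlat, which forms the core of the complex and carries its lipoyl groups, was at 57.8, 32.4, 53.4, 40.3 and 37.3 CPM in controls and 57.0, 53.9, 43.9 and 39.8 CPM with 2-DG. Its log2 fold change was 0.14 (SE 0.23), with a 95% interval from -0.37 to 0.64 (edgeR adjusted p = 0.903), and its lowest value was that of control 2, the library with the most rod markers (45024 CPM), whose part in it was not tested.

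Mpc1 was at 99.9, 76.5, 76.4, 79.7 and 53.9 CPM in controls and 82.5, 99.7, 68.2 and 55.6 CPM with 2-DG. The lowest values in both groups were again those of control 5 and 2-DG 4. Its log2 fold change was -0.02 (SE 0.24), with a 95% interval from -0.54 to 0.51 (edgeR adjusted p = 0.991). Its partner in the carrier, Mpc2, was at 19.3 to 42.3 CPM, with a log2 fold change of -0.05 (SE 0.26, edgeR adjusted p = 0.976).

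**Figure D2:**
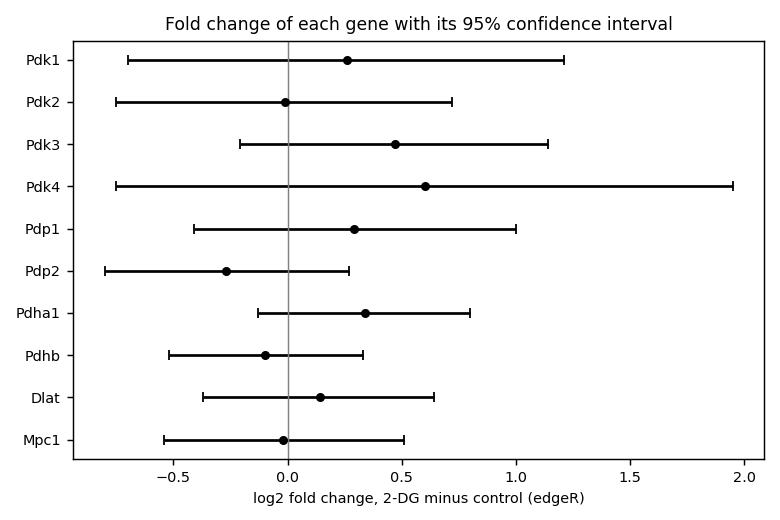
Log2 fold change of 2-DG over control (horizontal axis) with its 95% confidence interval for each of the 10 genes, from edgeR on 5 control and 4 2-DG libraries. Every interval includes 0, the widest being that of Pdk4 (-0.75 to 1.95) and the narrowest that of Pdhb (-0.52 to 0.33).

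To compare levels between genes, transcript counts were divided by transcript length and scaled to a sum of 1000000 in every library, over all transcripts of a gene, non-coding ones included. On this per-length scale Mpc1 (192 ± 65.8, SD, n = 9) and Pdhb (155 ± 20.6) held the first and second ranks in every library, in either order, and their ranges overlapped. Pdha1 (68.5 ± 22.8) took rank 3 in every library. Dlat (47.9 ± 16.7), Pdp1 (38.6 ± 17.3), Pdk3 (37.6 ± 18.2) and Pdk2 (26.8 ± 10.1) shared ranks 4 to 7, with ranges that overlapped. Pdk1 (15.6 ± 7.6), Pdp2 (7.33 ± 1.7) and Pdk4 (4.49 ± 2.5) took ranks 8 to 10. With protein-coding transcripts alone, a choice made after the data were seen, Dlat was at 18.8 ± 5.56, at ranks 6 to 8 and below the mean of Pdk2 (25.7 ± 9.47), and Mpc1, Pdhb and Pdha1 held ranks 1 to 3 as before.

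Within the kinase family, Pdk3 was the isoform with the largest share of the summed kinase level in 6 of 9 libraries, and Pdk2 in the other 3. Pdk3 made up 40.9% ± 8.64 (SD, n = 5) in controls and 45.4% ± 12.4 (SD, n = 4) with 2-DG, and Pdk2 35.2% ± 10.1 and 29.6% ± 8.88. Pdk1 made up 23.6, 18.7, 21.3, 18.4 and 8.2% in controls and 20.5, 16.4, 20.7 and 9.42% with 2-DG. Pdk4 made up 1.58, 3.16, 3.22, 8.88 and 12.5% in controls and 3.33, 2.89, 4.06 and 22.6% with 2-DG. In control 5 and 2-DG 4 Pdk4 therefore exceeded Pdk1 (Pdk1 to Pdk4 ratio of 0.655 and 0.417), while in the other 7 libraries Pdk1 led by 2.07 to 14.9 times. From coding transcripts alone Pdk4 also exceeded Pdk1 in these 2 libraries, at 6.69 against 3.83 in control 5 and 8.83 against 3.61 in 2-DG 4, and in no other. The ratio of summed kinase to summed phosphatase level was 1.97 ± 0.733 in controls and 1.94 ± 0.271 with 2-DG, a difference smaller than either SD. Pdp1 supplied 67.0 to 89.7% of the phosphatase level.

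**Figure D3:**
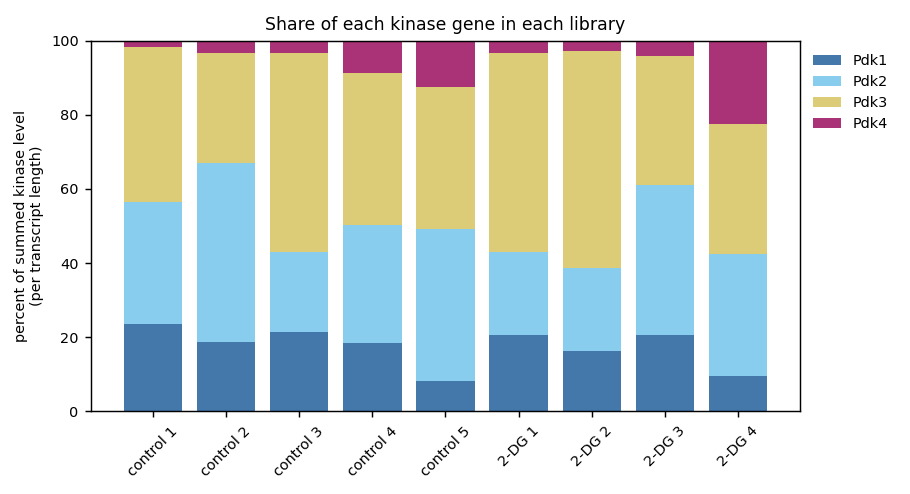
Stacked bars of the share of each kinase gene in the summed kinase level per transcript length (vertical axis, percent), one bar for each of 9 libraries. Pdk4 reaches 8.88% in control 4, 12.5% in control 5 and 22.6% in 2-DG 4, and 1.58 to 4.06% in the other 6.

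The opposite course of Pdk1 and Pdk4 ran across libraries of both groups. Control 4, control 5 and 2-DG 4 had the least Pdk1 (21.3, 11.1 and 11.9 CPM), the most Pdk4 (7.51, 12.6 and 22.2 CPM) and the highest sums of vessel and pericyte markers (1136, 2098 and 2683 CPM). The 2-DG 3 library did not follow: its vessel marker sum of 1126 CPM was close to that of control 4, but it had the most Pdk1 of all, 42.9 CPM, and 5.78 CPM of Pdk4. Of the 10 markers, Cdh5 (VE-cadherin) and Cldn5 were highest in those 3 libraries, at 474, 861 and 1346 CPM and at 209, 459 and 327 CPM, and the others did not all follow: Kdr was at 82.2, 109 and 50.2 CPM and Pdgfrb at 50.2, 104 and 53.7 CPM. The part of vessel cells in the levels of either kinase was not tested.

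**Figure D4:**
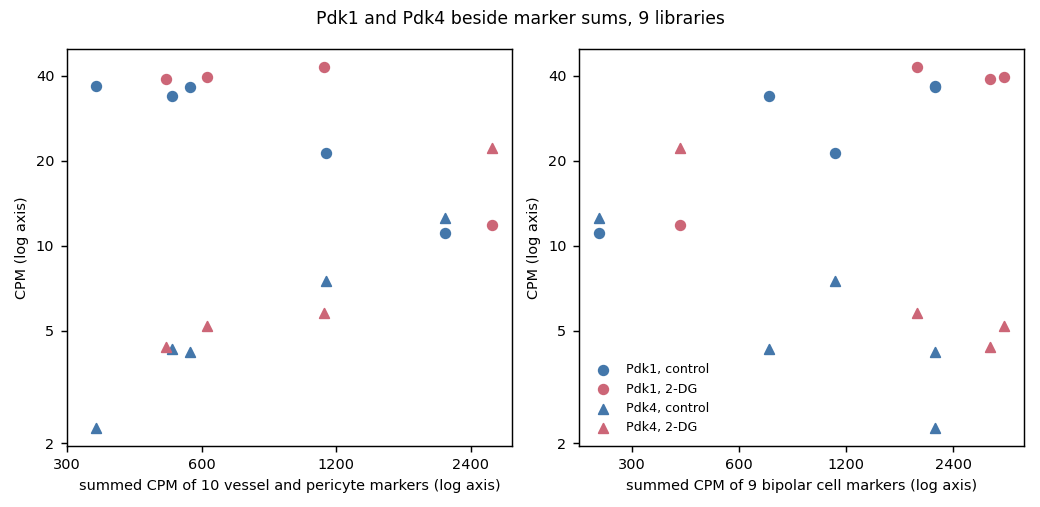
CPM of Pdk1 (circles) and Pdk4 (triangles) in 9 libraries on log axes, against the summed CPM of 10 vessel and pericyte markers (left) and of 9 bipolar cell markers (right), with controls in blue and 2-DG in red. The 2 libraries with the most vessel markers, at 2098 and 2683 CPM, are the ones where the triangle lies above the circle.

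The genes whose log2 CPM followed each kinase most closely over the 9 libraries were looked up after their values had been seen, as a description. For Pdk4 they were Flt4 (r = 0.990), Kif1c (0.988), Cks2 (0.986), Emcn (0.985) and Lsm8 (0.984); Flt4 and Emcn encode a vascular growth factor receptor and the endothelial surface protein endomucin. Emcn was at 25.9, 45.7, 47.4, 147 and 283 CPM in controls and 68.3, 64.0, 119 and 547 CPM with 2-DG. For Pdk1 they were Zmym3 (r = 0.991), Fam184b (0.990), Myo18a, Napb and Snap91 (0.989 each), of which Napb and Snap91 encode proteins of synaptic vesicle traffic. Snap91 was at 303, 222, 240, 160 and 86.7 CPM in controls and 277, 294, 293 and 98.5 CPM with 2-DG. For Pdha1, which had the smallest unadjusted p, they were Setd3 (r = 0.979), Map1b (0.964), Skp1a, Trim62 (0.958 each) and Copg1 (0.951). These are the highest of 21049 values each, over points that share 1 library's depth and cell make-up.

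The sequences before the starts of Pdk1 and Pdk4 are shown because these were the kinases that varied most between libraries and in opposite directions. Both are RefSeq windows on GRCm38.p6, read 5′ to 3′ on the gene's own strand and ending just before the first base of the gene. For Pdk1 (plus strand) the window was chr2:71872974-71873223, and for Pdk4 (minus strand) chr6:5496310-5496528, which leaves out the bases that the GENCODE gene model counts as transcribed. Capitals mark ACGTG or GCGTG on either strand, the core of the site to which the hypoxia-inducible factor binds.
Pdk1: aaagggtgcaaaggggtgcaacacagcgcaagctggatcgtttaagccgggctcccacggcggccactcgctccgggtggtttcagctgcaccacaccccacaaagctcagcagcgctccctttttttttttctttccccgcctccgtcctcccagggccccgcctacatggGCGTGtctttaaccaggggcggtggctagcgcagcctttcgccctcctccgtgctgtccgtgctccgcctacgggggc
Pdk4: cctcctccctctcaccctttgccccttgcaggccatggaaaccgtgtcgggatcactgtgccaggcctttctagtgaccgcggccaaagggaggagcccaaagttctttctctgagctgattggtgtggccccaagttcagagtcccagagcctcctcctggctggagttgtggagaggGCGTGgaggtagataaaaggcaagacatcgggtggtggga
Each holds 1 GCGTG and no ACGTG, starting 78 bases before the RefSeq start of Pdk1 and 71 bases before that of Pdk4. Of 32851 windows of 250 bases before RefSeq starts, 38.6% hold at least 1 of these motifs (16.6% ACGTG, 28.2% GCGTG), so a match is common. Of the 10 genes, 9 had an entry, in 12 windows, and Pdp1 had none. Of the 9 windows at a first start, 8 held at least 1 of the motifs; their median G+C content was 62.4%, against 52.4% over all windows, and the part of base composition in the count was not tested. Those of Pdk2 and Pdp2 held ACGTG 2 times each as the palindrome CACGTG, counted on both strands, that of Pdk3 ACGTG 1 time and GCGTG 3 times, that of Pdhb each of them 1 time, that of Pdha1 GCGTG 3 times, that of Mpc1 GCGTG 1 time, and that of Dlat neither. The G+C content of the first windows ran from 58.8% for Pdk4 to 73.6% for Mpc1.

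At the transcript level, the coding form (Pdk1-201) made up 79.0% ± 15.4 (SD, n = 5) of the Pdk1 level in controls and 61.0% ± 25.2 (SD, n = 4) with 2-DG, the rest being assigned to 7 non-coding transcripts. By library it was 74.9, 99.7, 57, 82.2 and 81.3% in controls and 36.5, 44.8, 71.3 and 91.5% with 2-DG. The non-coding Pdk1-208 was at 5.84% ± 8.07 in controls and 17.6% ± 11.5 with 2-DG, and the ranges of the groups overlapped for both transcripts. From summed transcript counts in place of the deposited gene counts, which follow per-length levels, the log2 fold change of Pdk1 was -0.03 (edgeR adjusted p = 0.988); the part of the transcript shares in this was not tested. Dlat was divided about evenly between the coding Dlat-201 (39.9% ± 3.75 in controls, 40.6% ± 5.94 with 2-DG) and the short non-coding Dlat-202 (43.6% ± 8.41 and 42.7% ± 4.95). Pdp1 was spread over 6 coding transcripts, led by Pdp1-202 at 41.3% ± 25.8 in controls and 46.4% ± 5.11 with 2-DG. In control 2, Pdp1-202 was at 0.00143%. How reads are divided between transcripts is itself an estimate, whose error these counts do not carry. How many reads of Pdha1 and Mpc1 are shared with the related gene Pdha2 and the pseudogene Mpc1-ps was not tested.

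The genes around the complex are given by lists. Of 76 genes in 7 lists that were tested, 0 passed an adjusted p of 0.05 in edgeR, and 3 were higher and 1 lower with 2-DG at an unadjusted p under 0.05, beside 7.25% of all genes tested. This count of 4 was 9 without control 2 and 22 with limma-voom. The count over all genes rose too, from 1526 to 1855 without control 2 and to 5474 with limma-voom. Among the other parts of the complex, Dld, the dehydrogenase it shares with related complexes, had a log2 fold change of 0.26 (SE 0.19), Pdhx, which tethers Dld to the core, 0.22 (SE 0.18), and Pdpr, the regulatory subunit of the phosphatase, 0.32 (SE 0.35); their edgeR adjusted p were 0.790, 0.820 and 0.857. Of 14 genes for making and attaching the lipoyl group, 6 were above 0 and the median was -0.01, and of 5 genes for the thiamine cofactor 1 was above 0 with a median of -0.11. Of 9 genes of the related dehydrogenase complexes, 5 were above 0, with a median of 0.07. Of 16 known regulators of kinase genes, 6 were above 0, with a median of -0.09; Hif1a was at 0.42 (SE 0.47, edgeR adjusted p = 0.855) and Ppara at -0.24 (SE 0.44, adjusted p = 0.911).

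Of 15 TCA cycle genes, 14 had a log2 fold change above 0, with a median of 0.18, and none passed the adjusted threshold. Suclg2, the GTP-forming succinyl-CoA ligase subunit, was at 13.1, 8.59, 15.0, 16.1 and 16.9 CPM in controls and 19.9, 26.4, 24.2 and 22.7 CPM with 2-DG. All 4 2-DG libraries lay above all controls, and its log2 fold change was 0.74 (SE 0.24, edgeR adjusted p = 0.570). Cs, citrate synthase, which uses the acetyl-CoA made by the complex, was at 140 to 174 CPM in controls and 185 to 210 CPM with 2-DG, also without overlap, with a log2 fold change of 0.34 (SE 0.17, edgeR adjusted p = 0.723). Fh1, fumarate hydratase, was the exception at -0.31 (SE 0.18, edgeR adjusted p = 0.749).

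Of 14 genes of pyruvate entry and fate, 6 were above 0, with a median of -0.09, which was 0.18 without control 2. Gpt2, the mitochondrial alanine aminotransferase that links pyruvate and alanine, was at 17.5, 9.45, 15.6, 16.7 and 14.2 CPM in controls and 37.7, 39.5, 31.9 and 29.0 CPM with 2-DG. The groups did not overlap, and the log2 fold change was 1.23 (SE 0.23), with a 95% interval from 0.72 to 1.75 (edgeR adjusted p = 0.380). Me2, a mitochondrial malic enzyme that forms pyruvate, had a log2 fold change of 0.43 (SE 0.18, edgeR adjusted p = 0.678), with ranges that overlapped. The gene lower at an unadjusted p under 0.05 was the activity-induced nuclear receptor Nr4a1, at -0.82 (SE 0.29, edgeR adjusted p = 0.602), with 173 to 327 CPM in controls and 105 to 204 CPM with 2-DG. Groups that did not overlap were found for 4 of the 76 genes, beside 2.93% of all genes. These were Gpt2, Suclg2, Cs and, lower with 2-DG, the lipoyltransferase gene Lipt1 (3.69 to 4.73 CPM in controls, 2.80 to 3.52 CPM with 2-DG).

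**Figure D5:**
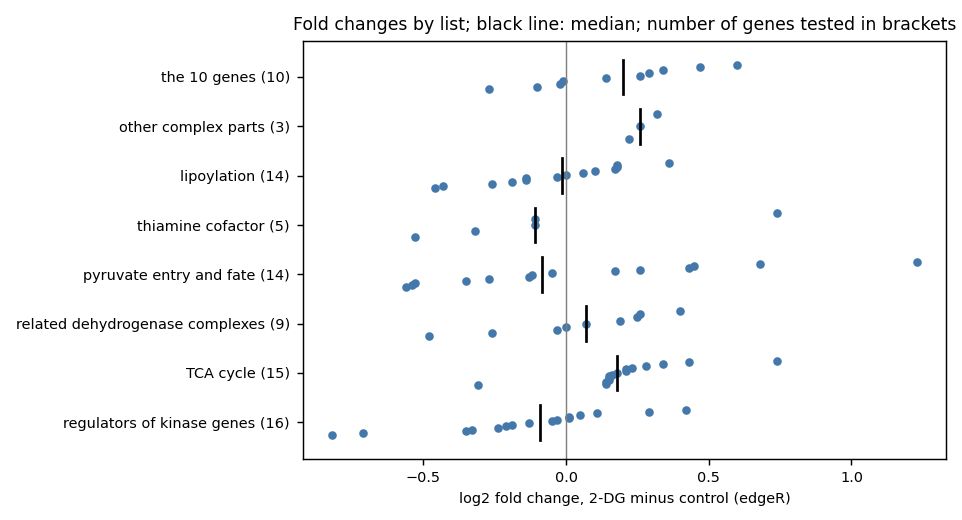
Log2 fold change of 2-DG over control (horizontal axis) of the 10 genes and of 7 lists of related genes, one point per gene, with the median of each list as a black line and the number of genes tested in brackets. The medians lie between -0.11 and 0.26, and Gpt2 is the point at 1.23.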

How the data were processed

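Total RNA of retinal explants was made into libraries with a stranded kit from 4 ng of RNA with 13 PCR cycles and sequenced from both ends, 101 bases each. The authors deposited estimated counts per gene and per transcript, not normalised between libraries. Of 12766 tested genes with at least 2 transcripts, 85.3% differed from the sum of their transcripts by over 5% in some library, and gene counts followed the per-length level more closely (median SD of the log2 ratio across libraries 0.027, against 0.112 for the sum), as counts scaled for transcript length would. The submitters' processing notes name kallisto and the build GRCm38, with versions not given in the sources used here. The sample titles gave the group and replicate number, and the treatment tag matches them; the protocol text in the labels is the same for all 9 samples and describes medium with 2-DG, also for the controls. A deposited signal table of scaled CPM for 12568 genes gave the same overlap of groups for the 9 of the 10 genes it holds, and a deposited table of the authors' fold changes and p-values was not used.

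Estimated counts were rounded, filtered with filterByExpr, scaled by TMM and tested with edgeR 4.0.16 in R 4.3.3 (glmQLFit and glmQLFTest, group as the only term), with Benjamini-Hochberg adjustment over 21049 genes and a threshold of 0.05. Standard errors and 95% intervals came from the same F test. DESeq2 1.42.0 and limma 3.58.1 served as alternatives. Per-length levels are transcript counts divided by GENCODE M21 lengths. Marker sums were compared by exact permutation tests, whose smallest possible p is 0.00794. Intervals cover the spread between libraries and counting error, and floors are only the CPM to which 3 counts correspond. The reads carry no molecular identifiers here. Coordinates are on GRCm38. Symbols were matched for 99.38% of gene IDs.

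The 10 genes, though picked by role and symbol, the lists of related genes and markers, the tests and the rule for naming genes (all 10, and up to 3 per list with the smallest unadjusted p under 0.05) were chosen with earlier results of these data known. Dld, Pdhx, Pdpr, Mpc2, Hif1a, Ppara, Cs, Fh1 and Lipt1 are named outside that rule, after their values were seen. The analyses of both left-out libraries, of the vessel covariate, of genes like Pdk1 and Pdk4, of coding transcripts alone and of marker sums under other settings were added after the values had been seen.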

Additional observations from a re-analysis of the deposited data

Results flagged for a closer look

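Dixon's criterion marks about 1 in 20 independent, normally distributed values by chance. The values here share libraries and in part reads, so no excess over chance is read from their count. Within a group of 4 or 5 libraries, 8 of 52 values tested stood apart by this criterion. These were Pdk1 in 2-DG 4, at 11.9 CPM against 38.9 to 42.9 CPM in the other 2-DG libraries, Pdk4 in 2-DG 4, at 22.2 CPM against 4.39 to 5.78 CPM, and the Pdk4 share of the kinase level in that library, 22.6% against 2.89 to 4.06%. The vessel and pericyte marker sum of 2-DG 4, 2683 CPM, was the highest of all libraries, and its part in these values was not tested. Pdk2 stood apart in 2-DG 3, at 44.2 CPM against 22.9 to 25.1 CPM. That library also stood apart in cone markers, at 823 CPM against 92.1 to 135 CPM, and in RPE markers, at 296 CPM against 5.6 to 43.5 CPM. Control 2 stood apart in rod markers, at 45024 CPM against 5523 to 16265 CPM, and in cone markers, at 588 CPM against 79.9 to 105 CPM.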

How the results depend on the processing

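Under 20 alternatives, 0 of the 10 genes passed an adjusted p of 0.05, and Pdk3, Pdp1, Pdp2, Pdha1 and Dlat kept the sign of their fold change in each. At an unadjusted p under 0.05, limma-voom with quality weights counted 1 of the 10 (Pdk3), beside 5474 of all genes. A vessel marker covariate, chosen because Pdk1 and Pdk4 had been seen to vary with it, counted 2 (Pdk3 and Pdha1), beside 3036 of all genes. Pdk1 and Pdk4 were not called with it and kept the sign of their fold change. The fits without one library counted 0 to 1. Over all genes, adjusted calls numbered 284 with DESeq2, 1222 with limma-voom, 1 with the vessel covariate and 0 to 16 without one library, and unadjusted ones 5474 with limma-voom, 2642 without a filter, 3036 with the covariate and 921 to 2721 without one library. Log2 fold changes that turned sign were those of Pdk2 (0.21), Pdk4 (-0.12) and Mpc1 (0.12) with limma-voom, Pdk2 (0.03) and Mpc1 (0.01) without a filter, Pdk1 (-0.03) and Pdk2 (0.00) from transcript sums, Pdk2 (0.06) without control 5 and 2-DG 4, and Pdk2 (0.01) and Mpc1 (0.09) with the covariate. Without one library, Pdk1 ranged from 0.04 to 0.54, Pdk2 from -0.29 to 0.26, Pdk3 from 0.23 to 0.67, Pdp1 from 0.12 to 0.46, Pdp2 from -0.42 to -0.16, Pdha1 from 0.24 to 0.48, Dlat from 0.04 to 0.25, Pdk4 from -0.28 to 1.03, Pdhb from -0.18 to 0.01 and Mpc1 from -0.17 to 0.11. The cause was not tested. With the replicate number as a block, Pdk1 was at -0.07, Pdk2 at 0.04 and Pdk3 at 0.34, and 0 of the 10 genes were called; same-numbered libraries correlated at 0.451, -0.155, 0.102 and 0.205, so the numbers were not taken as pairs. Of the 76 related genes, 4 had an unadjusted p under 0.05, beside 1526 of all genes, against 2 to 22 under the alternatives. There were 9 without control 2, 8 with the covariate and 22 with limma-voom, beside 1855, 3036 and 5474 of all genes. Over all alternatives the list medians ran from -0.23 to 0.18 for pyruvate entry and fate, -0.13 to 0.10 for lipoylation, -0.50 to 0.00 for thiamine, 0.15 to 0.32 for other complex parts, 0.01 to 0.21 for related complexes, 0.09 to 0.27 for the TCA cycle and -0.21 to 0.00 for regulators.

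Log2 differences of marker sums, without one library, ranged for rods from -0.56 to 0.19, cones from -0.26 to 1.02, amacrine and horizontal cells from -0.37 to 0.32 (-0.04 on the plain library size), microglia from -0.20 to 0.31, RPE from -0.25 to 1.58 and vessels from -0.10 to 0.75. Those of bipolar cells (0.28 to 1.45) and Muller glia (-1.12 to -0.54) kept their sign in all 10 alternatives, as did those of ganglion cells, muscle, and lens and cornea. With 4 and 5 libraries and a biological coefficient of variation of 51.5%, the intervals of the 10 genes allow changes from 0.573-fold to 3.86-fold.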
